A study of Mus musculus with 8 samples.

Results

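These results concern 2178 regions of the mouse genome that carried a peak of phosphorylated CREB1 in 3 libraries of skeletal muscle and none in the library named C26 replicate 2. All lie near an end of a protein-coding gene. Peaks of the 4 deposited lists were merged wherever they overlapped by at least 1 bp, which gave 17607 regions, 8553 of them with a peak summit within 1000 bp of an end of a protein-coding gene span in GRCm38. A region was kept when C26 replicate 1, CTRL replicate 1 and CTRL replicate 2 each had a peak in it and C26 replicate 2 had none. The members were thus chosen by the peak calls of the 4 libraries, and the values of those peaks are given as a description with no test.

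The study profiled phospho-CREB1 by chromatin immunoprecipitation and sequencing (ChIP-seq) in muscle of mice with cancer cachexia. C26 mice were male Balb/c animals injected under the skin of the flank with C26 colon adenocarcinoma cells at 2 months of age, and CTRL mice were their controls. Each group had 2 phospho-CREB1 libraries, each with a numbered input of its own group, and the labels do not say whether replicates came from separate or pooled animals. C26 animals are described as having received rolipram, a phosphodiesterase 4 inhibitor, at 3 mg/kg or vehicle (ethanol in saline) from day 4 after tumor inoculation, and the labels do not say which of these the profiled mice got. They name the gastrocnemius in one place and the quadriceps in another, and do not say for each precipitation whether a CREB or a phospho-CREB1 antibody served. A peak list gives the fold enrichment over input and the −log10 q at each summit, and both depend on the depth of a library and of its input, so values of different libraries stand side by side here without being ranked against each other. Read depth is unknown. C26 replicate 2 had the shortest list, 4051 peaks, beside 7482 in C26 replicate 1 and 10835 and 14975 in CTRL replicates 1 and 2. A region without a C26 replicate 2 peak did not pass the authors' threshold there, which does not make it unbound, and in bulk muscle fewer nuclei with bound CREB1 cannot be told apart from less binding per nucleus.

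CREB1 is a leucine zipper factor that binds the cAMP response element (CRE), a palindrome with the sequence TGACGTCA, and its shorter core TGACG. Protein kinase A, freed by cAMP when a hormone receptor activates adenylyl cyclase, phosphorylates CREB1 and so lets it recruit the coactivators CBP and p300. Promoter CREs often lie close to the transcription start. In muscle the pathway is known for controlling the coactivator PGC-1 alpha, immediate early genes and genes of fuel use.

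The promoters of the strongest members show the kinds of sequence found in these regions. They are from the RefSeq promoter table (GRCm38.p6, 250 bases before to 50 after a start site), and the start site nearest the CTRL replicate 2 summit was taken for each region. Capitals mark TGACG on either strand (CGTCA on the other), and TGACGTCA where it is complete. The first are the 3 strongest members with TGACGTCA, by the lowest of their 3 within-list percentiles of −log10 q.
Pard6a, chr8:105701397-105701696, plus strand: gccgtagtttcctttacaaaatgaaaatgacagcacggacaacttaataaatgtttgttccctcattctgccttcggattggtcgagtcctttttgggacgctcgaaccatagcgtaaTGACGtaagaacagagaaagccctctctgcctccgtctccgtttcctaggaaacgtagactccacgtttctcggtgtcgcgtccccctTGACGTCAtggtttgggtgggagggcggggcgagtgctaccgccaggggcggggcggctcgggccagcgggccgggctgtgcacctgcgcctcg
Akirin1, chr4:123750250-123750549, minus strand: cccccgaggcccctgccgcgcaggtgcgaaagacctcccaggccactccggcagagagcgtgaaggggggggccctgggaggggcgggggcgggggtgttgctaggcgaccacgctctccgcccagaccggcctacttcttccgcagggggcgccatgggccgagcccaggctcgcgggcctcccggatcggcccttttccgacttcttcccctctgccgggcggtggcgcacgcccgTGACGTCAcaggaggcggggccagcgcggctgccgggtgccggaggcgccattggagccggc
Cdc42, chr4:137357710-137358009, minus strand: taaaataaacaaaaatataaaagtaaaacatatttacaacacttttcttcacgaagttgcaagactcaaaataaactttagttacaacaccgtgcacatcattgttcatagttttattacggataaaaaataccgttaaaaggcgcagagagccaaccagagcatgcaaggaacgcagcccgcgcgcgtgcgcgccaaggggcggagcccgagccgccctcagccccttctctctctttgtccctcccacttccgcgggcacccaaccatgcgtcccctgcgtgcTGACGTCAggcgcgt

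Next are the 2 strongest members with TGACG and no TGACGTCA, in which the core stands alone.
Idh3b, chr2:130284402-130284701, minus strand: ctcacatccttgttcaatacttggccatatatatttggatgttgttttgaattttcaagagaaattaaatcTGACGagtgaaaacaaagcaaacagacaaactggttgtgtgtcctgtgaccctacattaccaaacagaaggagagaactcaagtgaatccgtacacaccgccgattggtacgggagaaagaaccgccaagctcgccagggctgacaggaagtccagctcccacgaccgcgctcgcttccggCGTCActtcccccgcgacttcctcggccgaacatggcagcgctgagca
Unc13a, chr8:71671708-71672007, minus strand: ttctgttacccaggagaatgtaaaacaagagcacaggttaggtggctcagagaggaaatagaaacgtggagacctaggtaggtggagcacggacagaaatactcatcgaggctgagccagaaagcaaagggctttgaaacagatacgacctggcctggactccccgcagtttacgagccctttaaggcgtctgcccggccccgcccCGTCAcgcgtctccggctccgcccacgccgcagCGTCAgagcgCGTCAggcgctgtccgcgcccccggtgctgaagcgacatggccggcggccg

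The 2 strongest members with no TGACG in the window are shown for contrast, with capitals on the GC box GGGCGG and its reverse complement. The start site nearest the summit at Hacd2, a gene of very long fatty acid synthesis, belonged to LOC105246106.
LOC105246106, chr16:35022296-35022595, minus strand: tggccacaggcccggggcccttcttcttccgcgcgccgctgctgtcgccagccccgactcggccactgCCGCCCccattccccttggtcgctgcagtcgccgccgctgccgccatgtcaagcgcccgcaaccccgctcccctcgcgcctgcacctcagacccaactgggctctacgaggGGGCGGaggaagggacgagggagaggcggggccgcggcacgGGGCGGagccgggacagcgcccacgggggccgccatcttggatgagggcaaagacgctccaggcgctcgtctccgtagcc
Ubac1, chr2:26021711-26022010, minus strand: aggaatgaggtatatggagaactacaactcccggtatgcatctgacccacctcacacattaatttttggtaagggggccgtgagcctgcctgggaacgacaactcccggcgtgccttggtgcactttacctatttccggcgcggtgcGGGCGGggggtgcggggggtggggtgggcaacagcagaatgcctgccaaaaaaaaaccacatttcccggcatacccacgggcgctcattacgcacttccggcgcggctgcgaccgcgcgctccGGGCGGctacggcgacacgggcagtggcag

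Dusp1 and Odc1 are the 2 members from the list of known CREB1 targets that ranked highest among those with a promoter in the table, again with capitals on TGACG and TGACGTCA.
Dusp1, chr17:26508423-26508722, minus strand: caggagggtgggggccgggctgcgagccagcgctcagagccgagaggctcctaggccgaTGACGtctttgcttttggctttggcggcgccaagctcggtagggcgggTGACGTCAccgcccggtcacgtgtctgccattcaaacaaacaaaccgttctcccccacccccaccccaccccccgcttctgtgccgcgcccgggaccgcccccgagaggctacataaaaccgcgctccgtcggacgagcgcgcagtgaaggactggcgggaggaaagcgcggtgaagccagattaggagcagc
Odc1, chr12:17544623-17544922, plus strand: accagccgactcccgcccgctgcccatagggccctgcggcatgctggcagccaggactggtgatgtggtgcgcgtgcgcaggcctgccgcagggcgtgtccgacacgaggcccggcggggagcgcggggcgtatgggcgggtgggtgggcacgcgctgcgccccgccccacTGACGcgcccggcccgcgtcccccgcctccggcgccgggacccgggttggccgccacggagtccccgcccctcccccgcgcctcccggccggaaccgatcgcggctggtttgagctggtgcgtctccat

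The site in Dusp1 is complete and Odc1 holds the core once. In Pard6a, Akirin1 and Cdc42 the summit of the CTRL replicate 2 peak lay within 50 bp of the start site, at -46, -21 and 25 bp, with negative values upstream.

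Absence from C26 replicate 2 alone was by far the most frequent way for a gene-end region to miss a single library. The 2178 members were 25.5% of the 8553 gene-end regions, beside 16.6% (2924) of all 17607 regions with the same pattern. Only 139 gene-end regions missed C26 replicate 1 alone, 30 missed CTRL replicate 1 alone and 3 missed CTRL replicate 2 alone. A peak in all 4 libraries was found at 2310 gene-end regions, so 48.5% of the 4488 with peaks in the 3 required libraries lacked C26 replicate 2 (95% Wilson interval 47.1 to 50, counting error only). Away from gene ends the share was 52.8% (50.2 to 55.3; 746 of 1414 regions). The rule used these calls, and the order of the libraries follows the lengths of their lists, whose part in these counts was not tested. The member count rested on both C26 libraries: it was 3679 when no C26 replicate 1 peak was asked for, 4488 when C26 replicate 2 could be present or absent, and 593, or 25.2% of the regions with the required peaks, when only the 4051 strongest peaks of each library were kept.

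The members were peaks of middle strength. Strength is the percentile that a peak's −log10 q reaches among the peaks of the same library, where 100 is the top. Members had a median percentile of 44.6 in C26 replicate 1 (quartiles 25.1 and 63.2), 60.5 in CTRL replicate 1 (42.1 and 74.6) and 72.3 in CTRL replicate 2 (59.7 and 81.9). Gene-end regions with a peak in all 4 libraries had medians of 79.9 in C26 replicate 1, 64.5 in C26 replicate 2, and 86 and 89.99 in CTRL replicates 1 and 2. CTRL-only gene-end regions, where each CTRL library but no C26 library had a peak, had 35.4 and 53.2 in CTRL replicates 1 and 2. The members therefore lay between these classes in both CTRL lists. Their median fold enrichment over input was 5.09 in C26 replicate 1, 7.30 in CTRL replicate 1 and 10.7 in CTRL replicate 2, each on its own scale.

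**Figure D1:**
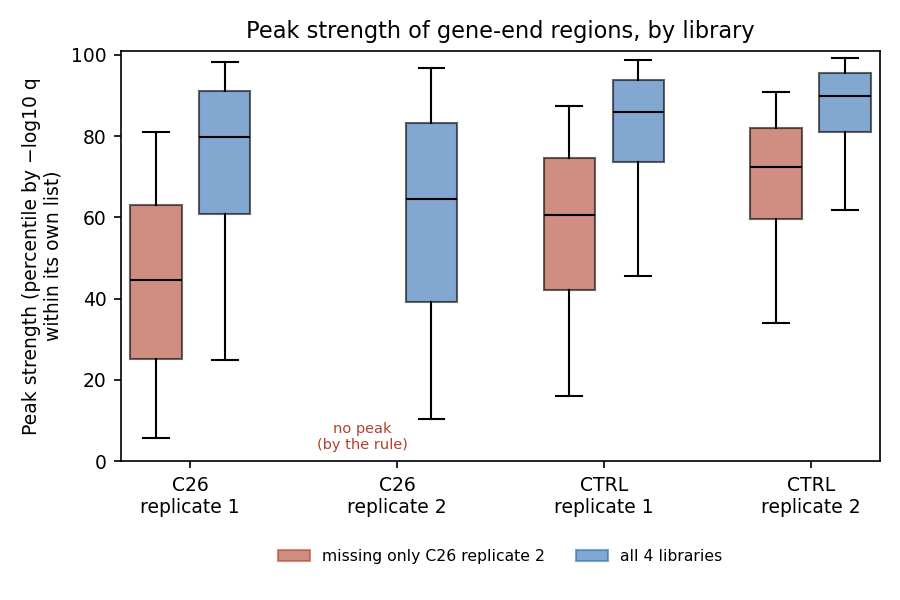
Box plots of peak strength (percentile of −log10 q among the peaks of one library) in each library for the 2178 gene-end regions missing only C26 replicate 2 (red) and the 2310 gene-end regions with a peak in all 4 libraries (blue). Boxes give the quartiles and median, whiskers the 5th and 95th percentiles over regions. The members' medians of 44.6, 60.5 and 72.3 lie under the medians of 79.9, 86 and 89.99 of the regions in all 4 libraries.

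The 3 libraries ranked the members alike only in part. Spearman's rank correlation across the 2178 members was 0.57 between C26 replicate 1 and CTRL replicate 1, 0.55 between C26 replicate 1 and CTRL replicate 2, and 0.65 between the CTRL replicates. Over the 2310 regions in all 4 libraries the same pairs gave 0.88, 0.88 and 0.89, and C26 replicate 2 gave 0.76 to 0.77 with each of the others. These are descriptions across regions, which share their libraries and are not replicates. The quartiles of strength in C26 replicate 1 were 25.1 and 63.2 for members and 60.9 and 91.1 for regions in all 4 libraries. The difference in correlation between the classes was not tested. Summits fell at nearly the same place: the median shift among members was 47 bp between C26 replicate 1 and either CTRL library and 43 bp between the CTRL libraries. It was 26 to 27 bp among the same 3 libraries in regions present in all 4. Of the members, 1699 (78.0%) had the C26 replicate 1 summit within 100 bp of the CTRL replicate 1 summit.

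The share of regions without a C26 replicate 2 peak was lower in each stronger bin of the gene-end regions. When the 4488 gene-end regions were binned by the lowest of their 3 percentiles, 89.3% of the 280 regions below the 10th percentile lacked C26 replicate 2 (85.1 to 92.4). It was 60.8% (56.2 to 65.2) between the 50th and 60th, 14.5% (11.8 to 17.7) between the 80th and 90th, and 1.80% (11 of 610) above the 90th. Away from gene ends the shares ran lower at the weak end, 75.3% (68.3 to 81.2) in the weakest bin and 48.5% (40.1 to 56.9) between the 50th and 60th, and 18.1% (11.6 to 27.1) between the 80th and 90th. Between the 10th and 20th percentile the shares were 79.1% (74.6 to 82.9) near gene ends and 67.2% (60.2 to 73.5) elsewhere. Between the 20th and 30th they were 77.7% (73.1 to 81.7) and 66.5% (59.5 to 72.8). The intervals did not overlap in the bins below the 30th percentile and overlapped in every stronger bin. With all bins pooled the order was the other way, 48.5% near gene ends and 52.8% elsewhere. These differences were not tested. The classes overlapped in strength: 278 regions in all 4 libraries (12.0% of 2310) were weaker than the median member, and 130 members (5.97%) were stronger than the median region in all 4.

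**Figure D2:**
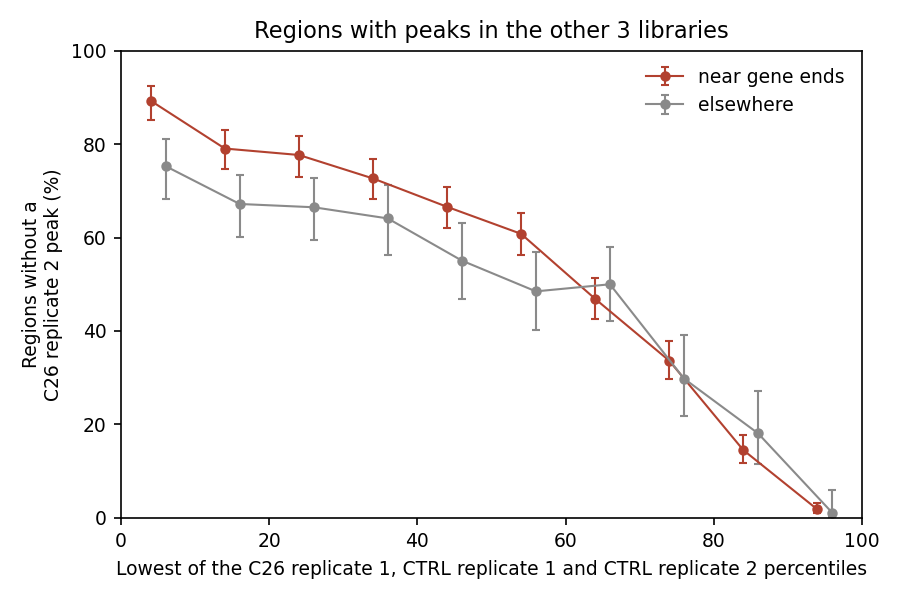
Share of regions without a C26 replicate 2 peak (%) against the lowest of their C26 replicate 1, CTRL replicate 1 and CTRL replicate 2 percentiles, in bins of 10, near gene ends (red, 4488 regions) and elsewhere (grey, 1414 regions). Bars are 95% Wilson intervals. Near gene ends the share is 89.3% in the weakest and 1.80% in the strongest bin.

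The strongest members were among the strongest peaks of the other 3 lists. The highest-ranked region (chr8:105700558-105701926) lay between Acd, a telomere-protecting shelterin subunit, and Pard6a, a cell polarity gene, with 17.8-fold enrichment in C26 replicate 1 and 27.2- and 36.1-fold in CTRL replicates 1 and 2 (percentile 94.5 in C26 replicate 1 and percentiles 95.3 and 96.4 in CTRL replicates 1 and 2). Azin1, which encodes an antizyme inhibitor that raises polyamine synthesis, came next with 20.5-fold enrichment in C26 replicate 1 and 27.2- and 32.5-fold in CTRL replicates 1 and 2 (chr15:38518905-38519877). The region at Hacd2 (chr16:35021932-35022777) had 22.6-fold enrichment in C26 replicate 1 and 19.4- and 36.5-fold in CTRL replicates 1 and 2. These regions were at percentile 94.3 or above in every required list, and C26 replicate 2 had no peak in them. Idh3b, a subunit of the TCA cycle enzyme isocitrate dehydrogenase, followed with 16.6-fold enrichment in C26 replicate 1 and 39.7- and 53.3-fold in CTRL replicates 1 and 2 (chr2:130283917-130284835). Akirin1, a nuclear protein known in muscle as mighty and linked to myostatin, had 18.1-fold enrichment in C26 replicate 1 and 29.2- and 41.5-fold in CTRL replicates 1 and 2 (chr4:123749938-123750955). Cdc42, a small GTPase that organizes actin, had 23.2-fold in C26 replicate 1 and 25.9- and 21.5-fold in the CTRL replicates (chr4:137356608-137358036). The TGACGTCA of these promoters, where present, is shown above. Ubac1, a ubiquitin ligase cofactor, had 14.9-fold in C26 replicate 1 and 32- and 32.3-fold in the CTRL replicates. Unc13a, a synaptic vesicle priming gene, had 18.9-fold in C26 replicate 1 and 34.2- and 37.9-fold in the CTRL replicates. The ribosomal protein gene Rpl18 had 12.9-fold in C26 replicate 1 and 17.2- and 25.5-fold in the CTRL replicates. The region between the RNA-binding protein gene Ro60 and the deubiquitinase gene Uchl5, the last of the highest 10, had 11.8-fold in C26 replicate 1 and 24.8- and 28.4-fold in the CTRL replicates. The start site nearest the Rpl18 summit in the promoter table was that of its neighbour Sphk2. At the other extreme, the weakest members by rank were at Zdhhc8, Slc12a2 and 2310022B05Rik, all at percentile 0.0738 in CTRL replicate 1 with a fold enrichment of 2.91. A palmitoyltransferase is encoded by Zdhhc8 and a sodium, potassium and chloride cotransporter by Slc12a2.

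Limits of the rule fell inside ordinary peaks. The member whose closest summit was farthest from a gene end was at Sav1, a Hippo pathway scaffold, 994 bp away (chr12:69986796-69987425), with 6.85-fold enrichment in C26 replicate 1 and 20.6- and 26.3-fold in CTRL replicates 1 and 2. Just outside, a region at Sh2d6 (chr6:72512415-72513038) had its closest summit 1005 bp from an end, with 3.39-fold enrichment in C26 replicate 1 and 3.05- and 7.25-fold in CTRL replicates 1 and 2. On the side of the peak call, the weakest C26 replicate 2 peak in a region of all 4 libraries was at Fbxo30, with a −log10 q of 1.35, where the other libraries stood at percentiles 80.9 in C26 replicate 1, and 64.9 and 89.7 in CTRL replicates 1 and 2.

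Few members had a C26 replicate 2 peak close by. The rule leaves out regions with such a peak inside, and that list held 4051 peaks in all. The distances were not taken for other regions, so they describe the members only. A C26 replicate 2 peak lay within 1000 bp of 22 members (1.01%, 0.668 to 1.52) and within 5000 bp of 83 (3.81%, 3.08 to 4.70), and the median distance to the nearest was 96671.5 bp. The nearest were 8 bp from the region at Zwint, a kinetochore gene (3.93-fold enrichment in C26 replicate 1 and 15.2- and 12.4-fold in CTRL replicates 1 and 2), 36 bp from that at 1810058I24Rik and 162 bp from that at Ubac1. At these 3 genes a separate C26 replicate 2 peak had its summit within 1000 bp of a gene end, so the gene itself was not without a peak. The members touched 2552 genes, which is 11.7% of 21883 protein-coding genes, and 59 of them (2.31%) had a C26 replicate 2 gene-end peak elsewhere. For the other 2493 genes no gene-end peak was called in that library.

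Members were of intermediate width, and most had a start site close by, as the choice of gene ends favors. Their median width after merging was 754 bp, beside 940.5 bp for gene-end regions in all 4 libraries and 591 bp for CTRL-only gene-end regions, and 59 held more than 1 peak of a library. The median distance from the C26 replicate 1 summit to the nearest gene end was 81 bp (77 to 87, order-statistic interval), and 1672 (76.8%) of these summits lay within 200 bp of an end. The RefSeq table held a start site within 1000 bp of the CTRL replicate 2 summit for 1738 members (79.8%), beside 82.8% of regions in all 4 libraries and 78.1% of CTRL-only regions. Relative to it the members' summit lay at a median of −36 bp (quartiles −95 and 16). Regions in all 4 libraries gave −41 bp (−115 and 5) and CTRL-only regions −24 bp (−88.5 and 34.2). At least 2 genes ended or began at 388 members (17.8%, 16.3 to 19.5), beside 545 (23.6%, 21.9 to 25.4) of the regions in all 4 libraries and 223 (14.9%, 13.1 to 16.7) of the CTRL-only regions. Any library's summit could place a region at a gene, and the classes differ in how many libraries had a peak and in width. The part of either in these shares was not tested.

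Sequence was not used by the rule, and for the CRE the member promoters stood between the other classes. TGACGTCA was present on either strand in 62 of 1738 member promoters (3.57%, 2.79 to 4.55), beside 216 of 1913 promoters of regions in all 4 libraries (11.3%, 9.95 to 12.8) and 13 of 1172 CTRL-only promoters (1.11%, 0.649 to 1.89). The core TGACG, which is part of TGACGTCA, was present in 685 member promoters (39.4%, 37.1 to 41.7), beside 1191 (62.3%, 60.1 to 64.4) and 291 (24.8%, 22.4 to 27.4) in the same classes. Among all 32851 promoters of the table, 1.79% held TGACGTCA and 20.8% held TGACG. The GC box GGGCGG, bound by SP1 family factors, did not follow this order, with 75.3% (73.2 to 77.2) of member promoters, 73.3% (71.3 to 75.2) in all 4 libraries and 75.1% (72.5 to 77.5) in CTRL-only regions, beside 35.7% of all promoters. CCAAT, the site of NF-Y, was in 40.4%, 45.4% and 39.2% of the classes in that order. CCGGAAG, an ETS family site, was in 23%, 23.9% and 19.1%, and the E-box CACGTG in 11.6%, 11.6% and 13.1%. The YY1 site AAGATGGC was in 6.62%, 5.70% and 5.89%, and the NRF1 motif in 14%, 11.2% and 14.1%. Over all promoters of the table, CCAAT was in 37.4%, CCGGAAG in 8.86%, CACGTG in 7.15%, AAGATGGC in 2.75% and the NRF1 motif in 4.60%. The median GC content was 64.3% in member promoters, 62% in all 4 libraries and 62.7% in CTRL-only regions, beside 52.7% over the table. No test over promoters was run, and intervals cover counting error only.

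**Figure D3:**
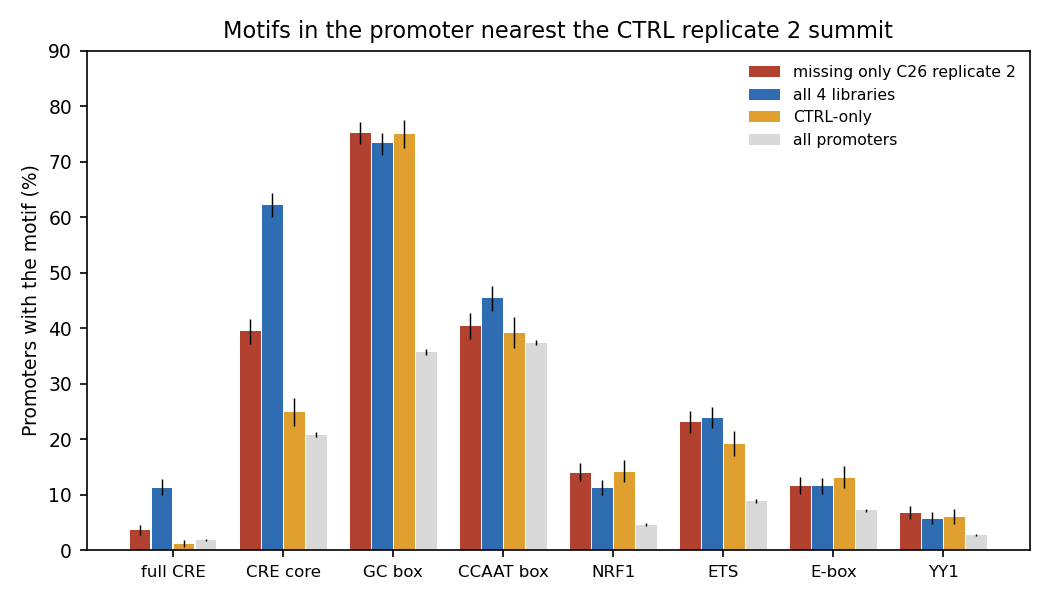
Share of promoters (%) with each of 8 motifs on either strand, for members (red), gene-end regions in all 4 libraries (blue), CTRL-only gene-end regions (orange) and all promoters of the table (light grey), with 95% Wilson intervals. The full CRE and the CRE core show a step between the classes, 3.57%, 11.3% and 1.11% for the full CRE, while the GC box lies between 73.3% and 75.3%.

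Members with the element were the stronger members. The 62 members with TGACGTCA had median percentiles of 72.8 in C26 replicate 1 and 79.97 and 84.7 in CTRL replicates 1 and 2, against 44, 60.1 and 72 for the 1676 without it. For TGACG the medians were 54.4, 68.5 and 76.6 with it and 38.7, 55.9 and 69 without it. For the GC box they were 44.6, 61 and 73 with it and 44.7, 59.6 and 70.1 without it. Since the classes differ in strength, the shares were also taken within bands of the lowest of the 3 percentiles. TGACG was in 24.7% of members (21.2 to 28.6) and 30% of regions in all 4 libraries (22.5 to 38.7) below the 25th percentile, and in 35.3% (31.5 to 39.2) and 41.2% (35.1 to 47.5) between the 25th and 50th. Between the 50th and 75th it was in 53.5% of members (49.1 to 57.9) and 49% of regions in all 4 libraries (44.6 to 53.4). Above the 75th it was in 63.8% of 138 members (55.5 to 71.3) and 76.8% of 1063 regions in all 4 libraries (74.1 to 79.2). The intervals overlapped in all bands but the strongest. Inside that band the classes still differed in strength. Members were 81 of the 558 gene-end regions between the 80th and 90th percentile and 11 of the 610 above the 90th. The shares of the strongest band are therefore not compared at equal strength. TGACGTCA was more frequent in each stronger band, in 0.755%, 2.57%, 3.91% and 17.4% of members and in 0, 1.26%, 6.10% and 17.2% of regions in all 4 libraries, where 0 of 120 promoters allows a share of up to 2.5%. The intervals for TGACGTCA overlapped in every band. With the 4051 strongest peaks of each library alone, TGACGTCA was in 8.40% of member promoters and 14.5% of promoters in all 4 libraries.

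**Figure D4:**
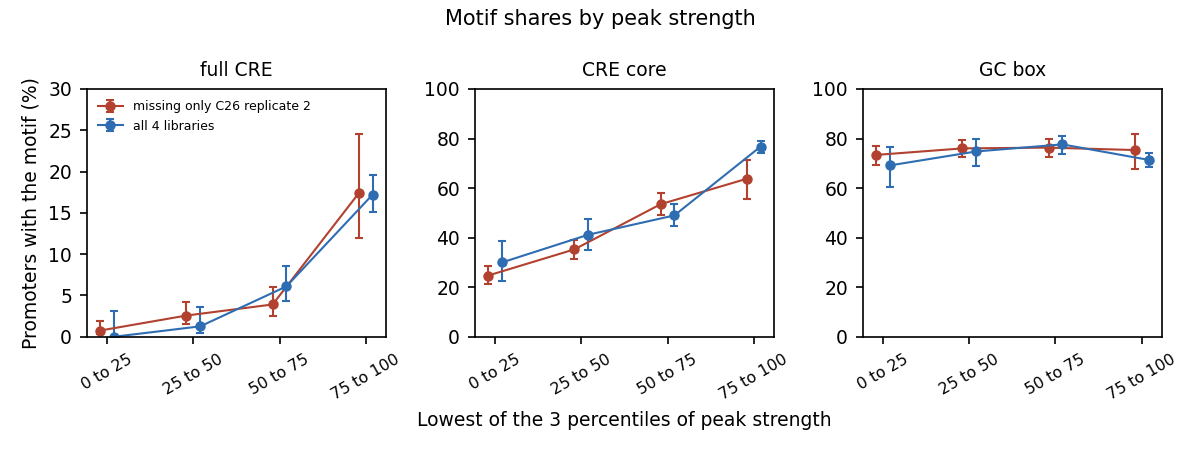
Share of promoters (%) with the full CRE, the CRE core and the GC box in 4 bands of peak strength (the lowest of 3 within-list percentiles), for members (red) and gene-end regions in all 4 libraries (blue), with 95% Wilson intervals. Vertical scales differ: the full CRE panel ends at 30%. The CRE core runs through 24.7%, 35.3%, 53.5% and 63.8% of member promoters, and the GC box stays between 73.4% and 76.3%.

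Summits mostly lay within 50 bp of TGACGTCA where it was present, and less often that close to TGACG. The C26 replicate 1 summit was within 50 bp of the centre of the nearest TGACGTCA in 51 of 62 members (82.3%, 71 to 89.8), at a median of 17 bp. CTRL replicates 1 and 2 gave 54 of 62 each (87.1%, 76.6 to 93.3), at medians of 16 and 15 bp. The core TGACG was within 50 bp of the C26 replicate 1 summit in 400 of 685 members (58.4%, 54.7 to 62), beside 830 of 1191 regions in all 4 libraries (69.7%, 67 to 72.2). For the GC box the same share was 50.5% (47.8 to 53.2) in members and 46.9% (44.3 to 49.5) in regions in all 4 libraries.

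Genes of cAMP and CREB signaling were found among the members from protein kinase A to the transcription factors. In that list 10 of 52 genes (19.2%) were at a member region, beside 11.7% of all protein-coding genes. As a share of the genes with a gene-end region holding peaks of the 3 required libraries they were 10 of 25 (40%), beside 47.8% over all 5341 such genes. Below, the fold enrichments of the CTRL libraries are given for replicate 1 and then replicate 2. Genes were assigned to regions by their start or by their other end. A region named for a gene is therefore not always at its promoter. Where the nearest start site is given, it is the one nearest the CTRL replicate 2 summit in the promoter table. Of the regulatory subunits of protein kinase A, Prkar1b (shared with Dnaaf5) had 6.54-fold in C26 replicate 1 and 9.27- and 17.6-fold in the CTRL replicates. Prkar2a, the other such subunit, had 6.02-fold in C26 replicate 1 and 13.3- and 8.74-fold in the CTRL replicates. Anchoring proteins hold the kinase at a place in the cell, and their genes Akap8 and Akap8l shared 1 region with 4.98-fold in C26 replicate 1 and 13.3- and 15.3-fold in the CTRL replicates. Phosphodiesterases break cAMP down. Their gene Pde7a ranked highest of the list, with 14.4-fold in C26 replicate 1 and 23.3- and 39.1-fold in the CTRL replicates (chr3:19310796-19311974). Pde8a, of the same family, had 3.76-fold in C26 replicate 1 and 6.15- and 12.8-fold in the CTRL replicates. Coactivators of CREB followed: Crtc2 (shared with Slc39a1) had 9.64-fold in C26 replicate 1 and 8.75- and 20.6-fold in the CTRL replicates. Crtc1 had 5.67-fold in C26 replicate 1 and 7.54- and 19.5-fold in the CTRL replicates. Among the factors, Creb5 had 5.54-fold in C26 replicate 1 and 7.81- and 10.2-fold in the CTRL replicates, with a TGACGTCA in its promoter. Atf1, a close relative of CREB1, had 2.78-fold in C26 replicate 1 and 6.77- and 12.5-fold in the CTRL replicates. Its peak was at percentile 1.52 of the C26 replicate 1 list and at percentiles 50.8 and 76.1 of the CTRL lists.

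Known CREB1 targets were more often at regions in all 4 libraries than at member regions. Of 42 targets, 6 were at a member region (14.3%, beside 11.7% of all protein-coding genes) and 26 at a region present in all 4 libraries. Members were thus 6 of 31 targets with peaks in the required libraries (19.4%), beside 47.8% over all such genes. Dusp1, a phosphatase that switches off MAP kinases, had 9.03-fold in C26 replicate 1 and 16.2- and 29.6-fold in the CTRL replicates (chr17:26507918-26509332), on the promoter printed above. Odc1, the first enzyme of polyamine synthesis, had 7.33-fold in C26 replicate 1 and 18.2- and 21.3-fold in the CTRL replicates (chr12:17544461-17545622). The orphan nuclear receptor gene Nr4a1 had 7.76-fold in C26 replicate 1 and 20.3- and 14.5-fold in the CTRL replicates (chr15:101253786-101254426), with the nearest C26 replicate 2 peak 6126 bp away. These 3 regions ranked 41, 164 and 195 among the 2178 members, and the others were weaker in at least 1 list. Nfil3, a leucine zipper repressor that also belongs to the clock list, had 4.44-fold in C26 replicate 1 and 9.75- and 5.87-fold in the CTRL replicates. Cox4i1, a subunit of cytochrome c oxidase that shares its region with Emc8 and Gm27021, had 5.49-fold in C26 replicate 1 and 5.42- and 14.4-fold in the CTRL replicates. Ppp1r15a directs the phosphatase that reverses the integrated stress response. It had 3.58-fold in C26 replicate 1 and 3.77- and 6.86-fold in the CTRL replicates, at a summit 849 bp from a gene end, and C26 replicate 2 had a gene-end peak elsewhere at this gene.

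Of the atrophy and autophagy genes, 13 of 45 (28.9%) were at a member region, beside 11.7% of all protein-coding genes. They were 13 of 33 of those with peaks in the required libraries (39.4%), beside 47.8% over all genes with those peaks. Of the muscle ubiquitin ligases, Fbxo32 was at a region in all 4 libraries and Trim63 at neither kind of region. Another ligase gene, Nedd4, had 6.64-fold in C26 replicate 1 and 11.6- and 12.1-fold in the CTRL replicates. Autophagy starts with the ULK1 complex and a class III phosphatidylinositol kinase. Becn1, of the kinase complex, had 10.5-fold in C26 replicate 1 and 12.6- and 12.6-fold in the CTRL replicates (chr11:101301978-101302644). Rb1cc1, of the ULK1 complex, had 4.58-fold in C26 replicate 1 and 6.95- and 7.92-fold in the CTRL replicates. Atg101, of the same complex, had 3.19-fold in C26 replicate 1 and 5.75- and 9.30-fold in the CTRL replicates. Becn1 was at percentile 82.8 or above in every required list, and Atg101 at percentile 10.2 in C26 replicate 1. Proteins of the LC3 family are linked to the growing autophagosome membrane. Gabarapl1, of that family, had 5.98-fold in C26 replicate 1 and 16.8- and 17.6-fold in the CTRL replicates. Gabarap (shared with Phf23) had 6.54-fold in C26 replicate 1 and 10.4- and 16.9-fold in the CTRL replicates. The nearest start site at this region was that of Phf23, not of Gabarap. Map1lc3a (shared with Pigu) had 4.49-fold in C26 replicate 1 and 6.56- and 7.08-fold in the CTRL replicates. At Gabarap and Map1lc3a, C26 replicate 2 had a gene-end peak elsewhere at the gene. Wipi2, which binds the lipid made by that kinase, had 6.02-fold in C26 replicate 1 and 7.75- and 14.8-fold in the CTRL replicates. Atg9a (shared with Ankzf1), a lipid scramblase, had 3.74-fold in C26 replicate 1 and 7.30- and 11.5-fold in the CTRL replicates. Here the nearest start site was that of Ankzf1. Cargo is brought in by receptors. The receptor gene Sqstm1 had 4.39-fold in C26 replicate 1 and 10.8- and 14.8-fold in the CTRL replicates. Bnip3, a receptor for mitochondria, had 3.72-fold in C26 replicate 1 and 7.47- and 15.3-fold in the CTRL replicates. Tfeb and Tfe3 encode transcription factors of lysosome genes. Tfeb had 7.03-fold in C26 replicate 1 and 6.11- and 16.2-fold in the CTRL replicates. Tfe3, on chromosome X, had 7.46-fold in C26 replicate 1 and 6.63- and 7.63-fold in the CTRL replicates.

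Genes of mitochondrial energy supply were members at varying rates. For OXPHOS complex I, 16 of 40 genes (40%) were at a member region, beside 11.7% of all protein-coding genes, and 8 at a region in all 4 libraries. Members made up 16 of 23 complex I genes with the required peaks (69.6%), beside 47.8% over all genes with those peaks. This difference was not tested. The 4 complex I members that ranked highest encode accessory subunits. Ndufb6 (shared with Smim27 and Topors) had 7.14-fold in C26 replicate 1 and 8.49- and 21.5-fold in the CTRL replicates. C26 replicate 2 had a gene-end peak elsewhere at Ndufb6. The start site nearest the member region's summit was that of Topors. Ndufs6 (shared with Mrpl36) had 6.75-fold in C26 replicate 1 and 13.8- and 12.3-fold in the CTRL replicates. Ndufa11 (shared with Vmac) had 7.05-fold in C26 replicate 1 and 10.5- and 15.6-fold in the CTRL replicates. Here the nearest start site was that of Vmac. Ndufab1, also the mitochondrial acyl carrier protein, had 6.81-fold in C26 replicate 1 and 7.97- and 12.4-fold in the CTRL replicates. In complexes II to V, 9 of 20 were members (45%), near the 47.8% over all genes. Sdhc, a membrane anchor of succinate dehydrogenase, had 6.55-fold in C26 replicate 1 and 16.9- and 10.4-fold in the CTRL replicates. Atp5a1 (shared with Haus1), the ATP synthase alpha subunit, had 5.64-fold in C26 replicate 1 and 8.12- and 8.32-fold in the CTRL replicates. Cox5b, of cytochrome c oxidase, had 6.20-fold in C26 replicate 1 and 8.46- and 7.0-fold in the CTRL replicates. Atp5h (shared with Kctd2), of ATP synthase, had 4.70-fold in C26 replicate 1 and 5.55- and 7.78-fold in the CTRL replicates. For OXPHOS assembly, 9 of 25 were members (36%). Cox10, an enzyme of heme A synthesis, had 9.64-fold in C26 replicate 1 and 8.80- and 14.2-fold in the CTRL replicates. Here the nearest start site was that of 2810001G20Rik. Surf1 (shared with Surf2), which helps assemble cytochrome c oxidase, had 4.52-fold in C26 replicate 1 and 7.54- and 11.9-fold in the CTRL replicates. At this region the start site of Surf2 was nearest. The complex I assembly factor gene Ecsit had 5.13-fold in C26 replicate 1 and 8.75- and 12.3-fold in the CTRL replicates. At Ecsit, C26 replicate 2 had a gene-end peak elsewhere at the gene. Cox19 had 5.13-fold in C26 replicate 1 and 7.12- and 9.75-fold in the CTRL replicates.

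Of genes of the TCA cycle and fatty acid oxidation with the required peaks, 11 of 26 were members (42.3%), led by Idh3b. Over all genes with the required peaks the share was 47.8%, and the lists of this paragraph were not tested against it. Dlat, the acetyltransferase of pyruvate dehydrogenase, had 7.38-fold in C26 replicate 1 and 13.9- and 19-fold in the CTRL replicates. Etfdh (shared with 4930579G24Rik), which passes electrons from fatty acid oxidation to ubiquinone, had 4.93-fold in C26 replicate 1 and 9.05- and 16.6-fold in the CTRL replicates. Hadha and Hadhb, the subunits of the trifunctional protein, share 1 region, which had 6.07-fold in C26 replicate 1 and 10.8- and 12-fold in the CTRL replicates. In glycolysis and glycogen metabolism 9 of 16 genes were members (56.2%). Hk2, the insulin-responsive hexokinase of muscle, had 11.7-fold in C26 replicate 1 and 19.5- and 26.3-fold in the CTRL replicates (chr6:82774158-82774927). Pgam1, a phosphoglycerate mutase, had 8.45-fold in C26 replicate 1 and 17- and 20.2-fold in the CTRL replicates. Its muscle counterpart Pgam2 had 7.29-fold in C26 replicate 1 and 6.77- and 17.1-fold in the CTRL replicates. Gbe1, the glycogen branching enzyme, had 6.20-fold in C26 replicate 1 and 7.78- and 13.2-fold in the CTRL replicates. Among genes of mitochondrial biogenesis 7 of 15 were members (46.7%). Ppard, a nuclear receptor of fat oxidation, had 10.7-fold in C26 replicate 1 and 11.6- and 22.7-fold in the CTRL replicates. Mterf1a, a mitochondrial transcription termination factor, had 12.9-fold in C26 replicate 1 and 19.5- and 11.6-fold in the CTRL replicates, with a TGACGTCA in its promoter. Twnk (shared with Mrpl43), the mitochondrial helicase, had 5.98-fold in C26 replicate 1 and 8.66- and 10.3-fold in the CTRL replicates. Ssbp1, which coats mitochondrial DNA, had 6.78-fold in C26 replicate 1 and 8.59- and 8.45-fold in the CTRL replicates. Mitochondrial dynamics and import gave 15 of 33 (45.5%). Timm50, a receptor of the inner membrane translocase, had 6.37-fold in C26 replicate 1 and 9.90- and 14.5-fold in the CTRL replicates. Tomm20, of the outer membrane translocase, had 4.13-fold in C26 replicate 1 and 14.9- and 13.7-fold in the CTRL replicates. The fission factor gene Mff had 5.60-fold in C26 replicate 1 and 13.6- and 15.9-fold in the CTRL replicates. The channel gene Vdac1 had 5.42-fold in C26 replicate 1 and 11.5- and 13-fold in the CTRL replicates.

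For protein synthesis, 20 of 40 genes of the mitochondrial ribosome with the required peaks were members (50%), beside 47.8% over all genes with those peaks. Mrps16 (shared with Cfap70) ranked highest with 10.3-fold in C26 replicate 1 and 23- and 24.7-fold in the CTRL replicates. Mrpl14 (shared with Tmem63b) had 8.67-fold in C26 replicate 1 and 18.2- and 33.1-fold in the CTRL replicates. Mrpl16 had 11.3-fold in C26 replicate 1 and 9.51- and 16.4-fold in the CTRL replicates. Mrps28 had 6.95-fold in C26 replicate 1 and 17.6- and 16.3-fold in the CTRL replicates. All 4 were at percentile 72.9 or above in every required list. The cytosolic ribosome had 20 of 56 (35.7%), with Rpl18 first. Rpl15 (shared with Nkiras1) had 7.26-fold in C26 replicate 1 and 13.4- and 24.7-fold in the CTRL replicates. Rpl13 had 8.20-fold in C26 replicate 1 and 13.4- and 13.4-fold in the CTRL replicates, with a TGACGTCA in its promoter. Rpl31 had 7.21-fold in C26 replicate 1 and 10.5- and 10.7-fold in the CTRL replicates. Translation initiation gave 14 of 37 (37.8%). Eif4b, which stimulates the helicase that unwinds mRNA, had 7.63-fold in C26 replicate 1 and 10.7- and 18.6-fold in the CTRL replicates. Eif6 (shared with BC029722 and Mmp24), which keeps ribosomal subunits apart, had 8.46-fold in C26 replicate 1 and 9.56- and 16.3-fold in the CTRL replicates. Eif2d had 7.52-fold in C26 replicate 1 and 9.36- and 9.79-fold in the CTRL replicates. Eif1b had 6.19-fold in C26 replicate 1 and 6.54- and 12.1-fold in the CTRL replicates. The nearest start site was that of BC029722 at the Eif6 region and of D830035M03Rik at the Eif1b region.

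For protein breakdown, proteasome genes gave 16 of 28 (57.1%). The immunoproteasome subunit gene Psmb8, which shares its region with the peptide transporter gene Tap1, had 19.1-fold in C26 replicate 1 and 11.9- and 17.1-fold in the CTRL replicates. C26 replicate 2 had a gene-end peak elsewhere at Tap1. The activator gene Psme4 had 6.20-fold in C26 replicate 1 and 22- and 14.6-fold in the CTRL replicates. The assembly chaperone gene Psmg4 had 6.46-fold in C26 replicate 1 and 8.36- and 13.1-fold in the CTRL replicates. The ATPase subunit gene Psmc4 had 6.34-fold in C26 replicate 1 and 8.72- and 11.8-fold in the CTRL replicates. Of the chaperones of protein folding, 12 of 92 were at a member region (13.04%, beside 11.7% of all protein-coding genes), or 12 of 59 of those with the required peaks (20.3%). The HSP70 partner gene Dnaja4 had 8.32-fold in C26 replicate 1 and 9.36- and 20.2-fold in the CTRL replicates. Cct7 (shared with Pradc1), of the chaperonin that folds actin and tubulin, had 5.73-fold in C26 replicate 1 and 12.8- and 15.4-fold in the CTRL replicates. Dnajc21 had 7.44-fold in C26 replicate 1 and 16.8- and 16.7-fold in the CTRL replicates. Bag5 (shared with Coa8), an HSP70 cochaperone, had 4.97-fold in C26 replicate 1 and 8.29- and 13.7-fold in the CTRL replicates. Over all genes with the required peaks the share was 47.8%, and the differences of these lists from it were not tested.

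Contractile genes were found at member regions and at few regions in all 4 libraries. Of 40 sarcomere genes, 9 were at a member region and 2 at a region in all 4 libraries, beside 2552 and 2836 of all 21883 protein-coding genes. Members were 9 of 11 sarcomere genes with the required peaks (81.8%). Under a −log10 q limit of 5 the member count was 3 with the limit in every list and 2 with it in all lists but C26 replicate 2, and with only the 4051 strongest peaks of each library it was 1. Flnc, a filamin of the Z disc, had 8.45-fold in C26 replicate 1 and 10.8- and 14.2-fold in the CTRL replicates, with a C26 replicate 2 peak 917 bp away. Mylpf (shared with Tbc1d10b), the fast regulatory light chain, had 4.54-fold in C26 replicate 1 and 5.50- and 12.7-fold in the CTRL replicates. Ttn, the giant spring of the sarcomere, had 4.49-fold in C26 replicate 1 and 5.07- and 9.86-fold in the CTRL replicates. Capza1 (shared with St7l), which caps actin, had 4.24-fold in C26 replicate 1 and 3.87- and 9.80-fold in the CTRL replicates. The nearest start site was that of St7l at the Capza1 region and of Tbc1d10b at the Mylpf region. Of 8 muscle markers, Acta1, Ckm and Ttn were at member regions (37.5%, beside 11.7% of all protein-coding genes). They were 3 of 4 markers with the required peaks (75%). Under a −log10 q limit of 5 the count was 2 with the limit in every list and 1 with it in all lists but C26 replicate 2. It was 0 with only the 4051 strongest peaks of each library. Gene-end peaks were called at 4 of the 8 in C26 replicate 1, 1 in C26 replicate 2, 7 in CTRL replicate 1 and 8 in CTRL replicate 2. The creatine kinase gene Ckm had 6.40-fold in C26 replicate 1 and 8.46- and 10.3-fold in the CTRL replicates. The skeletal actin gene Acta1 had 4.13-fold in C26 replicate 1 and 4.48- and 5.38-fold in the CTRL replicates. None of the 8 endothelial, 8 fibroblast or 8 leukocyte markers was at a member region, and none had a gene-end peak in a C26 library. In the circadian clock list 7 of 17 were members (41.2%). The repressor gene Cry2 had 6.93-fold in C26 replicate 1 and 19.1- and 22.9-fold in the CTRL replicates. The kinase gene Csnk1e had 7.38-fold in C26 replicate 1 and 5.85- and 11.3-fold in the CTRL replicates. The shares of the lists lay on both sides of the 47.8% of all genes with the required peaks, and no list was tested. With only the 4051 strongest peaks of each library, the count of members moved by over 1.5 times in 22 of the 26 lists.

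**Figure D5:**
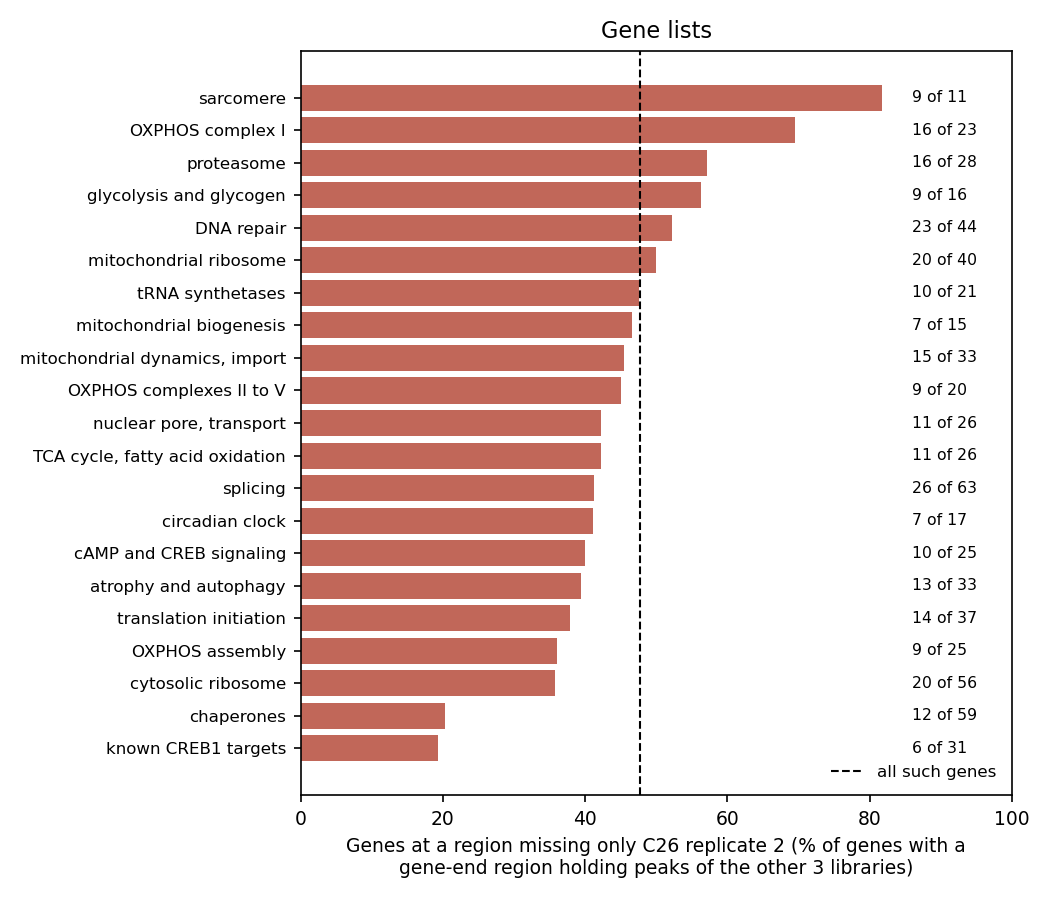
Share of genes at a region missing only C26 replicate 2 (%), among genes of 21 lists with a gene-end region holding peaks of C26 replicate 1, CTRL replicate 1 and CTRL replicate 2. Numbers at the right give the counts and the dashed line marks 47.8%, the share over all 5341 such genes. Marker lists of 8 genes are left out. Among the lists drawn, sarcomere genes (81.8%) and OXPHOS complex I (69.6%) have the highest shares, CREB1 targets (19.4%) and chaperones (20.3%) the lowest.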

How the data were processed

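Phospho-CREB1 peak lists of 2 C26 and 2 CTRL libraries were used. The authors' tools, per the submitters' processing notes, included MACS2 2.1.4, Bowtie2 2.3.5.1, SAMtools 1.6, FastQC 0.11.2 and Picard, with build mm10 (GRCm38). Per the labels, peaks of each library were called on their own, against an input from that group, at a q threshold of 0.05. A later filter appears in the labels as an abbreviation only. The fold enrichment over input (a ratio) and the −log10 q-value of each peak are as deposited, and the summit position was taken from the summit offset in bp in the deposited lists. Reads and inputs were not analysed here.

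Peaks were merged where they overlapped by 1 bp, and summits were set 1-based against both ends of 21883 protein-coding genes of the RefSeq table (GRCm38.p6). The strongest peak of a library stood for it in a region. Promoters (300 bases) and motifs were read from the RefSeq table on both strands. Merging, the rule and the motif search were tested on simulated data. Genes were named by rank of the lowest of the 3 percentiles: the highest 10 and lowest 3 regions, up to 4 per list (all for cAMP and CREB signaling, CREB1 targets, and atrophy and autophagy), and those at the limits of the rule. Some genes that this takes in are not reported here. The members, 26 gene lists and rules were chosen with earlier results of these data known. No exact permutation test of 2 libraries against 2 can go below 0.333 (two-sided), so no test of C26 against CTRL was run. Intervals are 95% Wilson or order-statistic intervals and cover counting error only. Python 3.11.15, pandas 2.3.3 and SciPy 1.17.1 were used.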

Additional observations from a re-analysis of the deposited data

How the results depend on the processing

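No paired analysis was possible because no result comes from a test between groups, so the shared replicate numbers enter none. Read depth is unknown and limits every absence. Ignoring each library in turn gave 2224 to 4488 regions. Of all gene-end regions with the peaks still required, 49 to 60.04% lacked C26 replicate 2. The regions kept had median percentiles of 42.6 to 62.9 in C26 replicate 1, 50.3 to 74.6 in CTRL replicate 1 and 64.8 to 81.9 in CTRL replicate 2. Of them, 16.6 to 20.8% were at 2 or more genes, and 3.87 to 4.03% had a C26 replicate 2 peak within 5000 bp. TGACGTCA was in 2.58 to 7.61% and TGACG in 33.5 to 51.4% of their promoters, and the median distance to the gene end was 77 to 83 bp. Shares without, and distances to, C26 replicate 2 have no value when that library is ignored.

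With the lists trimmed to their 4051 strongest peaks the members numbered 593, 25.2% of regions lacked C26 replicate 2, the percentiles in C26 replicate 1 and CTRL replicates 1 and 2 were 69.8, 79 and 85.4, TGACGTCA and TGACG were in 8.40% and 57.4%, and the distance was 67 bp. A −log10 q of at least 5 in every list gave 52.2%, percentiles of 56.5, 68.9 and 77.8, 45.6% with TGACG and 2.27% with a near C26 replicate 2 peak. The same limit in all lists but C26 replicate 2 gave 41.4%, percentiles of 54.9, 67.7 and 76.9, 4.65% and 45.9% with TGACGTCA and TGACG, and 76 bp. These settings drop weaker peaks, so the members left are stronger by construction. Merging peaks within 500 bp gave 3.04% with a near C26 replicate 2 peak. Windows of 500 and 2000 bp gave 15% and 21.9% at 2 or more genes and distances of 75 and 90 bp. Under every setting of threshold, overlap and window, and with the promoter taken at the C26 replicate 1 summit, TGACG was less frequent in members (39.2% to 57.4%) than in regions of all 4 libraries (61.8% to 69.8%). That promoter setting, and every alternative for regions of all 4 libraries, were chosen after seeing the data. Gene-list counts moved by over 1.5 times in 22 of 26 lists with trimmed lists, 7 with the limit in all lists but C26 replicate 2, and 1 with the limit in every list.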

Other observations

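DNA repair genes were members in 23 of 79 cases (29.1%), beside 11.7% of all protein-coding genes. They were 23 of 44 of those with the required peaks (52.3%), beside 47.8% over all genes with those peaks. Folds of the CTRL libraries are again given for replicate 1 and then replicate 2. Xrcc3 (shared with Zfyve21), a recombination gene, had 5.02-fold in C26 replicate 1 and 14.4- and 15-fold in the CTRL replicates. Here the nearest start site was that of Zfyve21. Lig3, the DNA ligase of nucleus and mitochondria, had 6.36-fold in C26 replicate 1 and 14.7- and 12.9-fold in the CTRL replicates. The Fanconi anemia gene Fance had 7.08-fold in C26 replicate 1 and 9.52- and 12.9-fold in the CTRL replicates. These 3 regions were at percentile 61.9 or above in each required list.

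Of genes of RNA splicing with the required peaks, 26 of 63 were members (41.3%), beside 47.8% over all genes with those peaks. Sf3a2 (shared with Plekhj1), of the U2 particle, had 9.58-fold in C26 replicate 1 and 12.2- and 28.9-fold in the CTRL replicates. At this region the start site of Plekhj1 was nearest. Prpf4 (shared with Cdc26) had 6.78-fold in C26 replicate 1 and 8.14- and 13.5-fold in the CTRL replicates. Hnrnph2, on chromosome X with the lysosomal gene Gla, had 11.6-fold in C26 replicate 1 and 11.7- and 15.9-fold in the CTRL replicates. Lsm12 had 7.24-fold in C26 replicate 1 and 16.1- and 33.5-fold in the CTRL replicates, at a summit 954 bp from the nearest gene end. Nuclear pore and transport genes gave 11 of 26 (42.3%). The scaffold genes Nup93, Nup107 and Seh1l each had a member region. Nup93 had 6.36-fold in C26 replicate 1 and 13- and 17.6-fold in the CTRL replicates. Nup107 had 5.87-fold in C26 replicate 1 and 5.50- and 13.2-fold in the CTRL replicates. Seh1l had 5.37-fold in C26 replicate 1 and 8.02- and 16.8-fold in the CTRL replicates. The importin gene Kpna4 had 5.38-fold in C26 replicate 1 and 9.35- and 17.1-fold in the CTRL replicates. Enzymes that load tRNA gave 10 of 21 (47.6%). Wars (tryptophan, shared with Wdr25) had 8.05-fold in C26 replicate 1 and 12.9- and 14.7-fold in the CTRL replicates. Nars (asparagine) had 6.87-fold in C26 replicate 1 and 20.5- and 18-fold in the CTRL replicates. Its mitochondrial counterpart Nars2 had 5.56-fold in C26 replicate 1 and 18.2- and 9.18-fold in the CTRL replicates. Farsb, a phenylalanine synthetase subunit, had 5.79-fold in C26 replicate 1 and 13.8- and 14.7-fold in the CTRL replicates.

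By chromosome, the share of members among gene-end regions with the required peaks ran between 41.9% (chromosome 19, 34.5 to 49.6) and 57.7% (chromosome X, 46.6 to 68), leaving out chromosome Y with 2 such regions. Chromosome 2 had 55.5% (50.2 to 60.7) and chromosome 5 had 42.3% (36.6 to 48.2).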
